A study of Mus musculus with 64 samples.

Results

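The livers of 7 mice given the mTOR inhibitor RAD001 together with the PI3K and mTOR inhibitor BEZ235 were compared with the livers of 7 mice given placebo. Samples were chosen by their labels for tissue and treatment, with 1 array per animal, which took 14 of the 64 arrays of the series. All animals were male C57BL/6 mice that had been injected at 2 weeks of age with 50 mg/kg of diethylnitrosamine, a carcinogen that causes hepatocellular tumours, so the placebo livers were also carcinogen-exposed livers of animals entered into a tumour study. Dosing began at about 44 weeks of age and lasted 28 days, with 2 gavages a day, and the animals were 48 weeks old at sampling after a fast of 3 h. The combination animals received 2.5 mg/kg RAD001 and 18 mg/kg BEZ235. Livers of 7 animals given 10 mg/kg RAD001 and of 6 animals given 30 mg/kg BEZ235 served for comparison, so each single agent was given at a higher dose than within the combination. RAD001 was last given when the fast began and BEZ235 1 h before the end. The labels name the animal of each liver but not the array chip or the place in the liver from which the tissue came.

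RAD001 is everolimus, a rapamycin derivative that binds FKBP12 and inhibits mTOR complex 1 allosterically. BEZ235, also called dactolisib, occupies the ATP site of mTOR and of class I PI3K and so reaches both mTOR complexes and the insulin signal upstream of AKT. In liver, insulin acts through PI3K and AKT to keep FOXO transcription factors out of the nucleus, and FOXO factors otherwise raise genes of fasting such as the insulin receptor adaptor Irs2. mTOR complex 1 supports protein and lipid synthesis and restrains autophagy and lysosome formation.

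Markers were read first to describe the livers, and the hepatocyte markers, given for livers only, do not separate liver from tumour. Of 12 hepatocyte markers tested, 11 were above background in all 27 livers, Fgb being the exception, and their summed intensity was 174275 to 210900 in combination and 202936 to 210844 in placebo livers. Across the 14 livers the deposited median intensity, on the linear scale, was 9.30 to 9.37 in the combination and 9.60 to 9.69 in the placebo group. These medians lie below 14.1, the linear intensity taken as the background limit. The deposited values had been quantile-normalized separately within each treatment, so that this step and the treatment cannot be told apart. All arrays were therefore normalized together before testing. Some arrays stood apart. The liver of combination animal 742 had the lowest median correlation with the other livers, 0.976, and a summed intensity of 18 oncofetal and tumour markers of 10964, against 1245 to 5544 in placebo livers. The summed neutrophil markers were 4221 in animal 709 and 2717 in animal 726, against 276 to 692 in placebo livers, and between 951.5 and 1214 in combination animals 773, 742 and 713. Of these sums the chemokine Cxcl1, which liver cells also make, gave 3599 and 2386. Without it the sums were 622 in animal 709, 532 in animal 742 and at most 370 in the other combination livers, against 107 to 523 in placebo livers. S100a8, a calcium-binding protein abundant in neutrophils, was at 206, 323, 362 and 245 in animals 773, 742, 709 and 713, above the placebo maximum of 187. Macrophage markers were at 11636 in animal 709 and at most 8387 in placebo livers.

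Values are log2 intensities of 1 probe per gene, and a difference of 1 is a factor of 2. Across 10493 genes, 29 differed between combination and placebo livers at a Benjamini-Hochberg adjusted p under 0.05 in limma, 0.276% of the genes tested. Of these, 19 rose (0.181%) and 10 fell (0.0953%), and 886 genes had an unadjusted p under 0.05. The difference was at least 2-fold for 7 genes that rose and 3 that fell. In each of the 29, all 7 combination animals lay on 1 side of the placebo mean, which selection on these same livers makes likely. The groups did not overlap in 11 of the 29, against 26 of all genes (0.248%). With each of the 14 animals left out in turn, 13 genes stayed past the limit every time, namely Depp1, Efna1, Klf6, Ccn2, Serpina7, Osgin1, Irs2, Lpar6 and Zfp655, which rose, and Cabyr, Klf2, Enpp6 and Adam23, which fell. The number of genes past the limit was 15, 18 or 19 without placebo animal 771, 696 or 748, and 16 or 14 without combination animal 764 or 726. Without the joint normalization 44 genes passed, 35 of them upward, or 79.5% against 65.5%, and 27 of the 29 were among them.

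Without the livers of animals 709, 726 and 742, 4 combination livers remained, and 2 genes passed, Depp1 (2.15, adjusted p = 0.0183) and Klf6 (1.24, adjusted p = 0.007). All 29 kept their direction, which was fixed in advance, as all 7 combination livers lay on 1 side of the placebo mean in each. Their differences were 0.695 to 1.11 times those with all 7 livers, lowest for Irs2.

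The largest rise was that of Depp1, a gene known to be induced by FOXO factors in starved cells. Its start on chromosome 6 is shown because it leads the comparison. The window is from RefSeq (GRCm38.p6, chr6:116650434-116650733, plus strand), 250 bases before to 50 after the start. It is in lower case throughout because none of the searched motifs was found in it. FOXO was searched only as the exact letters GTAAACA, so a site that differs from these would not be marked.
Depp1: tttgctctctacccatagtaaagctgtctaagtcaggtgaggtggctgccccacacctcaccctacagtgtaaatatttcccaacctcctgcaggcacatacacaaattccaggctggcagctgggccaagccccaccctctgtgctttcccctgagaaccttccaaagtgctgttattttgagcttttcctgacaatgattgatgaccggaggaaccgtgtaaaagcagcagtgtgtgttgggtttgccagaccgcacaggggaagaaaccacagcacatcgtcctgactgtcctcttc

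Klf6, a zinc finger transcription factor of the immediate early class, and Irs2 rose as well. Of the called genes with a promoter at hand, they alone held the E-box CACGTG in it. Both windows come from the same RefSeq table, Klf6 at chr13:5861239-5861538 on the plus strand and Irs2 at chr8:11008880-11009179 on the minus strand. Capitals mark CACGTG and the antioxidant response pattern TGACNNNGC on either strand. In Irs2 the matches share 2 bases and print as 1 run of capitals.
Klf6: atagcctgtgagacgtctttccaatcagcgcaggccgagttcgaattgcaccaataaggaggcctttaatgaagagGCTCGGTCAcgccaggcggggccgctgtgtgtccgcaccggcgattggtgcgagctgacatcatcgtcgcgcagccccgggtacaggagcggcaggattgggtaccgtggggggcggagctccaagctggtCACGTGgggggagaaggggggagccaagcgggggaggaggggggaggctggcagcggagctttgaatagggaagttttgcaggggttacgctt
Irs2: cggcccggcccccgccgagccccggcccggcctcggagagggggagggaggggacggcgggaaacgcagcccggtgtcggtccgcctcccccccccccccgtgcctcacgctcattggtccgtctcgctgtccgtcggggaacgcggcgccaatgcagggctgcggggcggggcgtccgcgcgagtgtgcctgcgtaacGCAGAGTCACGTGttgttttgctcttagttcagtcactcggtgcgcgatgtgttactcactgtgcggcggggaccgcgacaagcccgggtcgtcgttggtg

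Promoters were at hand for 24 of the 29 genes, 35 windows of 300 bases in all, and each was read on both strands for 4 patterns. CACGTG lay 43 to 38 bases before the start in Klf6 and 44 to 39 before it in Irs2, and 7.15% of the 32851 promoters in the table hold it. TGACNNNGC stood in 7 of 24 promoters of genes that rose (29.2%), those of Klf6 and Irs2 among them, and in 2 of 11 of genes that fell (18.2%). Of all promoters 12.4% hold it, and of those of tested genes 13.8%. Several promoters belong to 1 gene, as for Tgif1, so they do not count genes. The FOXO pattern GTAAACA stood in 1, that of Frat2, a gene that fell, against 3.65% of all promoters and 2.69% of those of tested genes. The cyclic AMP response element TGACGTCA stood in none of the 35, against 1.79% of all promoters and 2.7% of those of tested genes. These are matches of letters, and no binding was measured.

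Depp1 ranged from 8.92 to 10.64 in placebo livers (median 9.82) and from 11.49 to 12.31 in combination livers (median 11.87). The lowest combination liver was above the highest placebo liver. The difference was 2.15 (SE 0.30), or 4.45-fold, with an adjusted p of 0.000472 in limma. Irs2, the adaptor through which the insulin receptor reaches PI3K, ran from 7.30 to 8.59 (median 8.23) in placebo and from 8.44 to 9.89 (median 9.50) in combination livers. The livers of combination animals 773 and 713 lay within the placebo range. Irs2 rose by 1.18 (SE 0.22, adjusted p = 0.0125), a call lost when only the 2 groups were fitted (adjusted p = 0.0938).

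Efna1, a membrane-bound ligand of Eph receptors, rose 3.05-fold. Placebo livers lay between 7.64 and 8.17 (median 7.99) and combination livers between 8.87 and 10.66 (median 9.46), without overlap (1.61, SE 0.24, adjusted p = 0.000735). Klf6 lay between 6.79 and 7.36 (median 7.03) in placebo and between 8.09 and 9.69 (median 8.33) in combination livers. The 9.69 was that of animal 742, and the next highest value was 8.63, so the groups stayed apart with or without that animal. Klf6 rose by 1.43 (SE 0.20, adjusted p = 0.000472) on the brighter of its probes, while its second probe gave 0.35 (SE 0.15). Animal 742 was the highest combination liver for 7 of the 19 genes that rose, including Efna1, Serpina7, Osgin1 and Irs2. Placebo tumours, averaged by animal, had higher means than placebo livers for Efna1 (9.03 against 7.95) and Klf6 (8.75 against 7.07). Osgin1 gave 11.11 against 9.76, Serpina7 10.18 against 9.41 and Irs2 8.30 against 8.10. Mgst3, Rusc2, Cebpb and Sertad1 moved away from the placebo tumour mean, and the other called genes in its direction. The part of tumour tissue in these values was not tested.

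Ccn2, a secreted matrix-associated growth factor and known YAP target, was 8.78 to 10.00 (median 9.13) in placebo and 9.80 to 10.95 (median 10.73) in combination livers, and rose by 1.38 (SE 0.23, adjusted p = 0.00337). The liver of combination animal 773 lay within the placebo range. Serpina7, the thyroxine-binding globulin of plasma, ran from 8.77 to 10.00 (median 9.51) in placebo and from 9.97 to 11.35 (median 10.72) in combination livers (1.22, SE 0.21, adjusted p = 0.00478). Osgin1, an oxidative stress response gene driven by NRF2, ran from 9.39 to 10.17 (median 9.76) and from 10.23 to 11.55 (median 10.95), with no overlap. It rose by 1.18 (SE 0.23, adjusted p = 0.0147).

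The other 12 genes that rose changed by less than a factor of 2. Lpar6, a receptor for lysophosphatidic acid, rose by 0.72 (SE 0.14, adjusted p = 0.0146), from 8.43 to 8.74 in placebo to 8.92 to 9.75 in combination livers, without overlap. Zfp655, a zinc finger gene, rose by 0.59 (SE 0.10, adjusted p = 0.00512), also without overlap. Dusp6, the phosphatase that dampens ERK, rose by 0.93 (SE 0.20, adjusted p = 0.0361), and its lowest combination liver, 10.31, stood just above the highest placebo liver, 10.29. Its other probes gave 0.84 (SE 0.23) and 0.40 (SE 0.21). Tgif1, a homeobox repressor of TGF-beta signalling, rose by 0.75 (adjusted p = 0.0184), and its other probes gave 0.77 (SE 0.22) and 0.41 (SE 0.15). Its call was lost without combination animal 764 or 726, with a highest adjusted p of 0.0569. Mgst3, a microsomal glutathione transferase, rose by 0.85, Rusc2 by 0.72, the liver transcription factor Cebpb by 0.56 and Zfp36l1, which marks AU-rich messages for decay, by 0.56. Kbtbd2, an adaptor of a ubiquitin ligase that removes the p85 subunit of PI3K, rose by 0.46 and Ggnbp2 by 0.37. These 6 had adjusted p values of 0.0382 to 0.0445 and stayed past the limit in 3 to 5 of the 14 fits with 1 animal left out, as did Dusp6 in 6. The predicted genes Gm10052 and Gm5643 complete the 19.

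**Figure D1:**
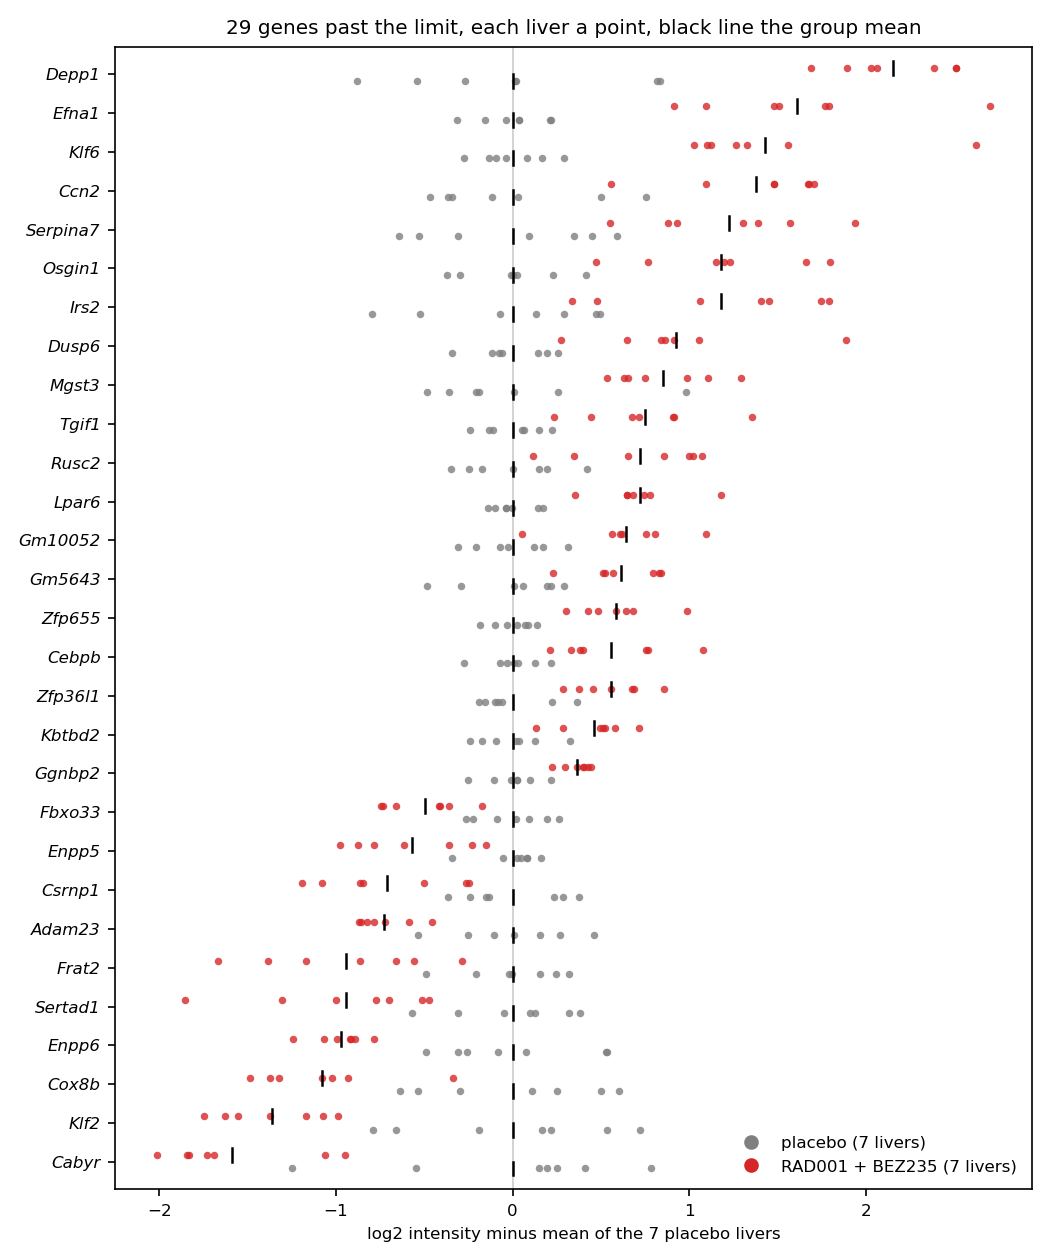
Each point is the log2 intensity of 1 liver minus the mean of the 7 placebo livers, for the 29 genes past the limit, with grey for placebo and red for the combination and black lines for group means. For these genes, selected on the same livers, every red point lies on 1 side of the placebo mean, from Depp1 with a mean difference of 2.15 to Cabyr with -1.59.

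Among the genes that fell, Klf2, a transcription factor best known from endothelium and quiescent lymphocytes, ran from 6.62 to 8.13 (median 7.58) in placebo and from 5.66 to 6.42 (median 6.04) in combination livers. The groups did not overlap, and the difference was -1.36 (SE 0.22, adjusted p = 0.00211). The 18 endothelial markers tested gave 0 past the limit, 14 with a negative difference, and a median of -0.12. Their summed intensity was 5108 to 7640 in combination and 6266 to 8359 in placebo livers, and its part in the Klf2 result was not tested. In bulk tissue, fewer cells of a type and less RNA per cell cannot be told apart.

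Cabyr, a calcium-binding protein of the sperm tail, showed the largest fall, from 5.27 to 7.30 (median 6.71) in placebo to 4.50 to 5.57 (median 4.78) in combination livers. The difference was -1.59 (SE 0.26, adjusted p = 0.00337). Only 2 of 7 combination livers were above background for it, against 7 of 7 placebo livers, and a second probe gave -0.26 (SE 0.20). Cox8b, the muscle and brown fat isoform of a cytochrome c oxidase subunit, fell by 1.08 (SE 0.24, adjusted p = 0.0456). It was above background in 1 of 7 combination livers, and their mean of 4.65 lay below the background limit of 4.91, so the size of the fall is bounded by the background. Enpp6, a choline-releasing phosphodiesterase, fell from 6.07 to 7.10 (median 6.48) to 5.32 to 5.78 (median 5.64), without overlap (-0.97, SE 0.19, adjusted p = 0.0146). Adam23, a catalytically inactive ADAM family member, fell by 0.73 (SE 0.14, adjusted p = 0.0146), while its other probes gave -0.10 and -0.09, and the mean over its probes did not pass.

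Sertad1, which binds CDK4, fell by 0.94 (SE 0.20, adjusted p = 0.0382). Frat2, an inhibitor of GSK3 in Wnt signalling, fell by 0.94 (adjusted p = 0.0382) and was above background in 5 of 7 combination livers. Csrnp1, a nuclear protein induced by AXIN1, fell by 0.71, Enpp5 by 0.57 and the F-box protein Fbxo33 by 0.50, with adjusted p values of 0.0398 to 0.044. These 5 genes and Cox8b overlapped between the groups and stayed past the limit in 3 to 5 of the 14 fits that left out 1 animal.

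The pathways nearest to the drug targets were described by 51 gene lists, some of which hold members of the 29. The lists were drawn up with earlier results of these data known, so a called member is no independent result for its list. Over all genes the median difference was -0.01 with 48.7% positive, and 0.181% rose and 0.0953% fell past the limit. Of 18 tested genes of gluconeogenesis and FOXO targets, 2 rose, Depp1 and Irs2, and 0 fell, with 11 positive and a median of 0.12. Pdk4, the kinase that shuts off pyruvate dehydrogenase in fasting, stood at 7.04 (median) in placebo and 8.76 in combination livers, a difference of 1.71 (SE 0.40) that missed the limit (adjusted p = 0.0594). Igfbp1, an insulin-repressed secreted binding protein, gave 1.56 (SE 0.48, adjusted p = 0.211) with ranges of 5.02 to 7.47 and 5.95 to 9.93. The gluconeogenic enzymes were not shifted beyond their spread, with Pck1 at -0.04 (SE 0.20) and G6pc at 0.23 (SE 0.17). The sign of Pck1 turned without joint normalization and without animal 742.

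Of 24 genes of the mTOR and PI3K pathway none passed, with a median of 0.03, and the nearest were Flcn, a regulator of the amino acid input to mTOR complex 1 (0.45, SE 0.12, adjusted p = 0.104), and Rictor, the defining subunit of mTOR complex 2 (0.35, SE 0.09, adjusted p = 0.132), each higher in 7 of 7 combination animals. None of 29 autophagy genes and none of 23 lysosome genes passed, with medians of 0.04 and -0.05. Sqstm1, the autophagy receptor p62, differed by 0.09 (SE 0.10), Map1lc3b, the LC3 protein of autophagosomes, by -0.06 (SE 0.13) and Ddit4, a stress-induced mTOR inhibitor, by -0.29 (SE 0.26). The sign of Map1lc3b turned without joint normalization and without animal 709. Among 15 cytosolic ribosomal protein genes 13 were positive (median 0.17) and 0 passed.

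Lipid genes gave 0 past the limit in each list. Fatty acid oxidation and PPARA targets were positive in 17 of 19 (median 0.24), with the thioesterase Acot2 at 0.83 (SE 0.29) and the dehydrogenase Acadl at 0.35 (SE 0.12), both higher in 7 of 7 combination animals. Cholesterol synthesis genes were negative in 15 of 18 (median -0.13), and fatty acid synthesis genes positive in 11 of 17 (median 0.06), with Fasn at -0.18 (SE 0.22) and Srebf1, the lipogenic transcription factor, at -0.18 (SE 0.32). The sign of Srebf1 turned without placebo animal 710. Respiratory chain genes were negative in 20 of 21 (median -0.05), but in 10 of 21 without joint normalization. Cyp7a1, the rate-limiting enzyme of bile acid synthesis, spread from 8.07 to 10.28 in placebo and from 8.39 to 10.87 in combination livers (0.58, SE 0.50, adjusted p = 0.816).

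Stress and growth signal lists, drawn up with earlier results known, held single called members, where 0.181% of all genes rose past the limit. NRF2 targets had 1 of 20 past the limit, Osgin1, and were positive in 16 of 20 (median 0.22). ERK feedback genes had 1 of 11, Dusp6, and immediate early genes 1 of 17, Klf6, with Phlda1 at 0.92 (SE 0.26, adjusted p = 0.177) and Junb at 0.85 (SE 0.25, adjusted p = 0.188). Of 25 ATF4 and endoplasmic reticulum stress genes none passed, and Chac1, a glutathione-degrading enzyme induced by ATF4, was nearest. It ran from 6.86 to 7.92 in placebo and from 8.12 to 9.59 in combination livers, without overlap (1.46, SE 0.35, adjusted p = 0.0757). Acute phase genes gave 0 of 23, with Lcn2 at 1.24 (SE 0.44, adjusted p = 0.327) and Hamp, the iron hormone hepcidin from the iron list, at -0.35 (SE 0.26). Igf1 differed by -0.14 (SE 0.13). Of 18 tested oncofetal and tumour markers, 13 were positive, 5 negative and 0 past the limit, with a median of 0.23. Afp, above background in 4 of 7 combination and 2 of 7 placebo livers, gave 0.70 (SE 0.46) and Gpc3 0.60 (SE 0.44), each with its highest combination value, 8.71 and 9.92, above the placebo maximum of 6.18 and 8.49. The growth factor gene Igf2 gave -0.76 (SE 0.43) and Spink1, a secreted protease inhibitor, -0.75 (SE 0.48), the lowest of the list. At its other end Cd63 gave 0.92 and Akr1c18 0.88. All of these were named after their values were seen.

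The lists with the lowest medians were male-biased liver genes and interferon response genes. All 15 tested male-biased genes were negative, with a median of -0.60, and 0 passed. Against the same placebo livers the list median was -0.48 with RAD001 and -0.22 with BEZ235. Mup20, a urinary pheromone carrier, was 11.19 to 12.79 (median 12.35) in placebo and 10.37 to 12.02 (median 11.50) in combination livers (-0.97, SE 0.29, adjusted p = 0.19). Selenbp2 gave -1.37 (SE 0.33, adjusted p = 0.0745) and Hsd3b5, a male-specific steroid dehydrogenase, -1.65. Of 11 female-biased genes 9 were positive (median 0.12). All 23 interferon response and class I genes were negative (median -0.32), with 0 past the limit, and the list median was -0.08 with RAD001 and -0.17 with BEZ235. The chemokine Cxcl9 ran from 8.51 to 10.23 (median 9.27) in placebo and from 7.69 to 8.87 (median 8.48) in combination livers (-1.01, SE 0.29, adjusted p = 0.174). Irf7, a master regulator of interferon genes, gave -0.90 (SE 0.33). Ccl5, a T and NK cell chemokine, gave -0.91 (SE 0.27, adjusted p = 0.196), in a list of 12 T and NK markers with a median of -0.07 and summed intensities of 174 to 272 in combination and 192 to 482 in placebo livers. The part of these cells in the interferon values was not tested. The male-biased and interferon medians of the combination kept their sign without animals 709, 726 and 742, at -0.63 and -0.38. Without the same animals, macrophage markers went from 9 of 14 negative (median -0.05) to 13 of 14 (median -0.23), and MHC class II genes from 6 of 7 (median -0.20) to 7 of 7 (median -0.44). Their part in the interferon values was not tested either.

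**Figure D2:**
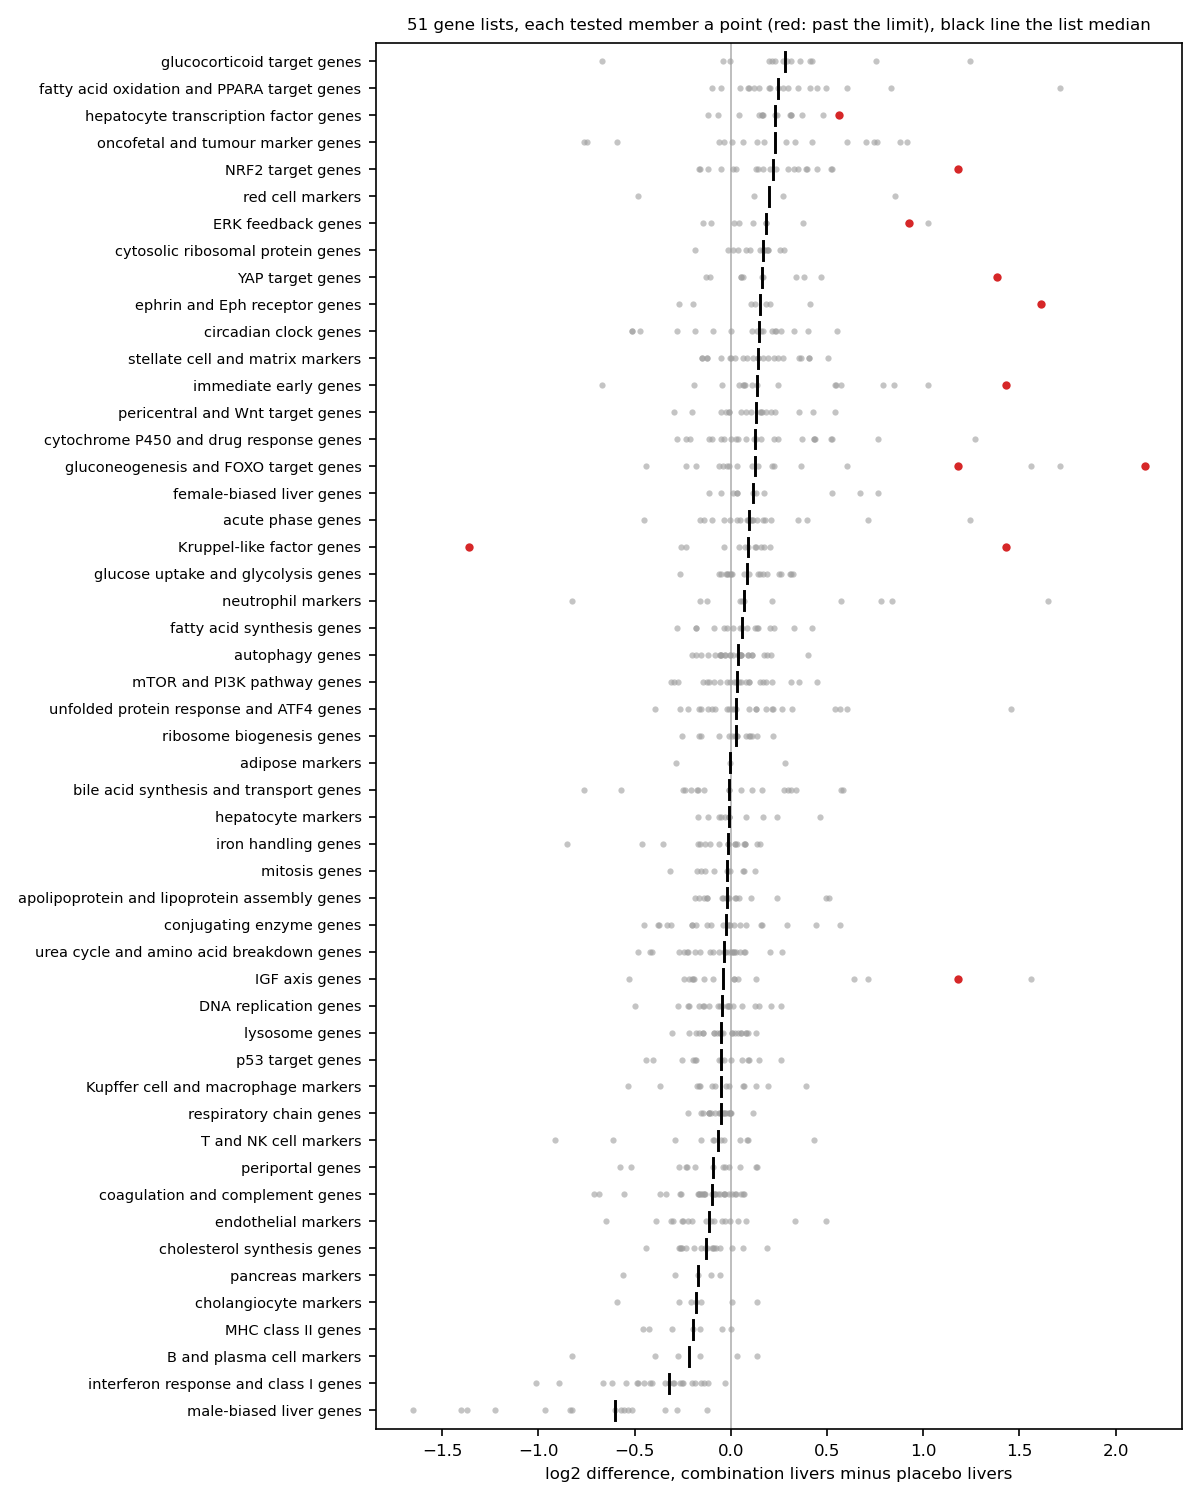
Each row is 1 of 51 gene lists and each point the log2 difference of 1 tested member between combination and placebo livers, with red for genes past the limit and black lines for list medians. Medians run from -0.60 for male-biased genes to 0.28 for glucocorticoid targets, and the called genes stand singly or in a pair within a list.

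The livers given 1 agent were measured against the same placebo livers. The comparisons share the placebo livers, so their values are set side by side only. Depp1 differed from placebo by 2.15 with the combination, 1.94 with BEZ235 and -0.68 with RAD001. Efna1 gave 1.61, 1.03 and -0.01 in the same order, and Klf6 1.43, 0.92 and 0.06. For Efna1 and Klf6 the RAD001 mean was thus close to the placebo mean, and for Depp1 it was below it. Ccn2 gave 1.38, 1.37 and 0.65, Irs2 1.18, 1.04 and 0.76, and Serpina7 1.22, 0.45 and 0.98, and of these 6 rises Serpina7 was the one whose RAD001 value was nearer to the combination than the BEZ235 value. Among the falls, Klf2 gave -1.36, -1.23 and -0.41, Cabyr -1.59, -1.14 and -0.21, and Frat2 -0.94, -0.52 and 0.57.

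**Figure D3:**
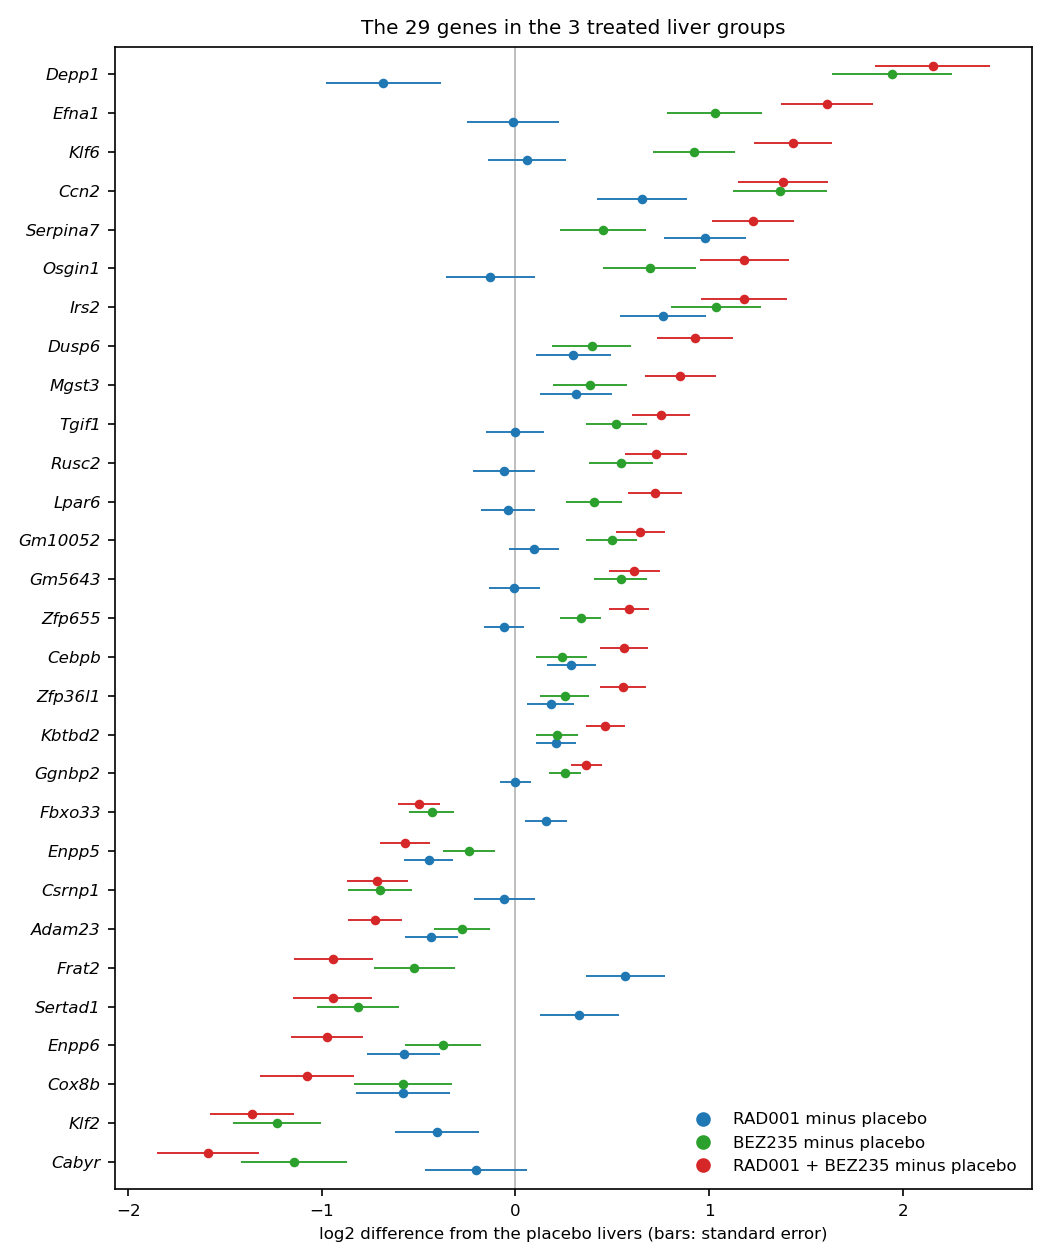
Log2 difference from the placebo livers with its standard error for the 29 genes, in blue for RAD001, green for BEZ235 and red for the combination. Depp1 stands at 2.15 and 1.94 in the combination and BEZ235 livers and at -0.68 in the RAD001 livers.

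**Figure D4:**
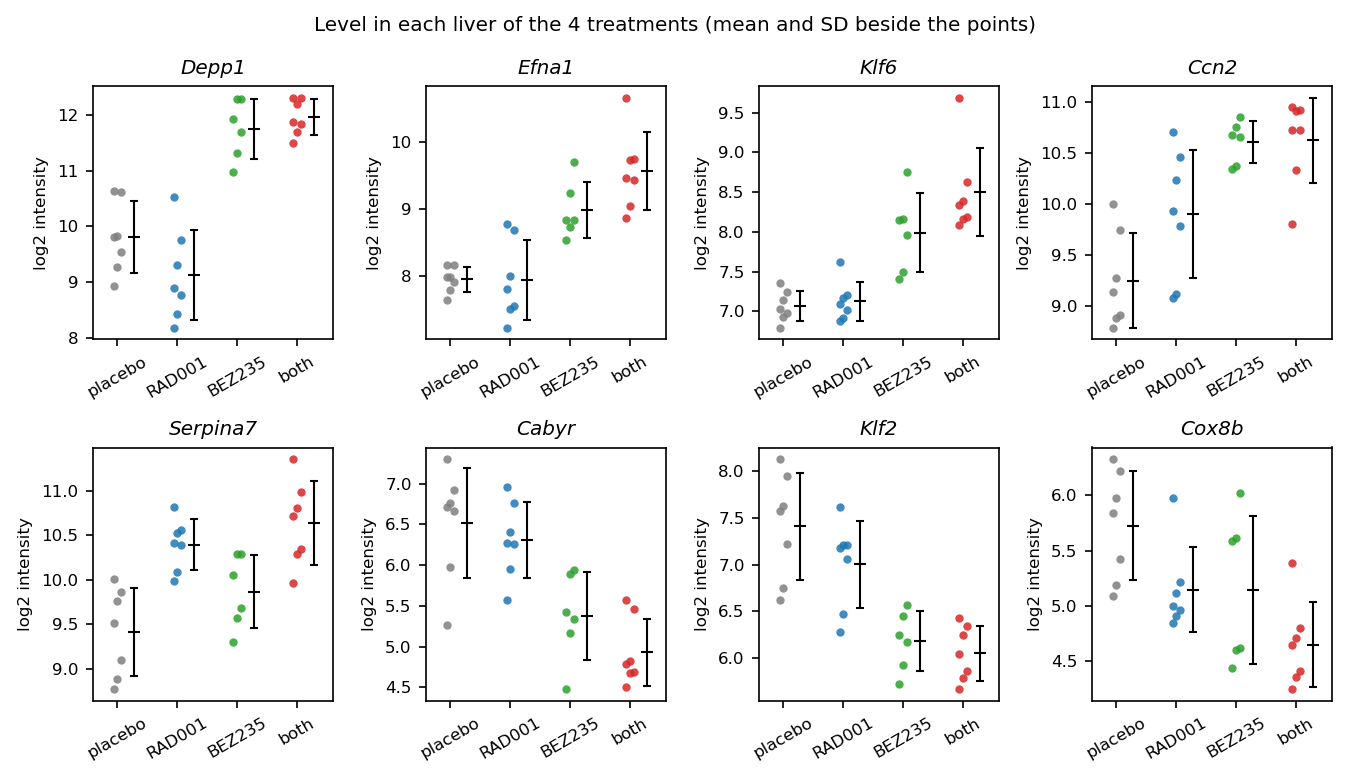
Log2 intensity in each liver for 8 genes, the 5 with the largest rises and the 3 with the largest falls, with mean and SD beside the points, where both stands for the combination. BEZ235 and combination livers lie together for Depp1, Ccn2 and Klf2, and RAD001 livers lie near placebo livers for Efna1 and Klf6.

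Tested directly, combination and BEZ235 livers differed in 0 of 10493 genes (0%), with 409 at an unadjusted p under 0.05 in limma and a smallest adjusted p of 0.922. The 95% interval of the difference was -0.42 to 0.85 for Depp1, -0.48 to 0.51 for Ccn2 and -0.59 to 0.33 for Klf2, so differences of these sizes cannot be told from 0 here. For Efna1 it was 0.08 to 1.09, for Klf6 0.08 to 0.94 and for Serpina7 0.32 to 1.22, each without adjustment for the number of genes. The doses of BEZ235 were 18 and 30 mg/kg, so the comparison is between regimens.

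Against RAD001 livers 92 genes passed (0.877%), 54 higher (0.515%) and 38 lower (0.362%) in combination livers, which were set against 10 mg/kg RAD001 with 2.5 mg/kg of it in the combination. Depp1 was 2.84 higher (SE 0.30, adjusted p = 2.6e-06), as RAD001 livers ran from 8.18 to 10.52, all below the combination livers. Cyp2b10, a drug-metabolising P450 induced through CAR, was 2.16 higher (SE 0.33, adjusted p = 0.000694). It ran from 8.42 to 9.78 in RAD001, 10.17 to 12.24 in combination and 8.91 to 11.34 in placebo livers, and so overlapped with placebo but not with RAD001. Efna1 was 1.62 and Klf6 1.37 higher. Cxcl1 was 2.14 higher (SE 0.50, adjusted p = 0.031), a call lost without RAD001 animal 772, 760, 763 or 730 or combination animal 726, 709 or 713. Among the lower genes were Frat2 (-1.51, adjusted p = 0.000191), Cabyr (-1.38), Gdf9, an oocyte growth factor (-1.28, adjusted p = 0.031), Sertad1 (-1.27) and Hexim1, an inhibitor of the elongation kinase P-TEFb (-1.12, SE 0.20, adjusted p = 0.00361). Gdf9 was likewise lost without RAD001 animal 732, 760, 730 or 745 or combination animal 773, 726, 742 or 713. The count of 92 was 61, 47, 59 or 59 without RAD001 animal 700, 760, 763 or 730, 51 or 61 without combination animal 742 or 713, and 15 without animals 709, 726 and 742 together.

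The combination difference in liver was also set against that in tumours, for which 7 combination tumours of 4 animals and 10 placebo tumours of 6 animals were averaged by animal. The 2 differences themselves differed in 1 gene, 0.00953% of those tested, with 886 at an unadjusted p under 0.05. It was Cyp2f2, a P450 of periportal hepatocytes, which stood at 13.82 ± 0.12 (SD, n = 7) in placebo livers and 13.59 ± 0.29 (n = 7) in combination livers. In tumours it stood at 9.51 ± 1.11 (n = 6) and 12.61 ± 1.32 (n = 4). The tumour difference exceeded the liver difference by 3.33 (SE 0.59, adjusted p = 0.0102 in limma with the animal as a random block). The fit used 1 spread per gene for both tissues, while the SDs of Cyp2f2 were larger in tumours, so this SE may be too small. With the animal as a fixed replicate block the value was 3.32 and did not pass (adjusted p = 0.174), nor did it with 1 tumour per animal (2.92, adjusted p = 0.0776) or without combination animal 773 (2.78, adjusted p = 0.15). The number of genes was 0 without animal 773, 3 without 713 and 5 without 775. None of the 29 liver genes passed this test. Depp1 differed by 2.15 in liver and 1.16 in tumours, Efna1 by 1.61 and 1.53, and Klf6 by 1.43 and 1.17. Some other rises were small or absent in tumours, with Ccn2 at 1.38 and 0.22, Dusp6 at 0.93 and 0.05 and Serpina7 at 1.22 and -0.60. In tumours 24 of the 29 had the same sign as in liver, but the share over all genes was not counted. Some of these tumour differences were near 0, as for Kbtbd2 (0.01) and Frat2 (-0.07). The 4 combination animals with tumours also gave livers on which the 29 were selected. Cabyr came nearest to passing the test between tissues (adjusted p = 0.0574), but in placebo tumours it was at most 4.78, below the background limit of 4.91. A fall there could thus not have been seen. Combination tumours ran from 4.39 to 5.56 (median 4.59), so its tumour difference rests mostly on values near background.

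**Figure D5:**
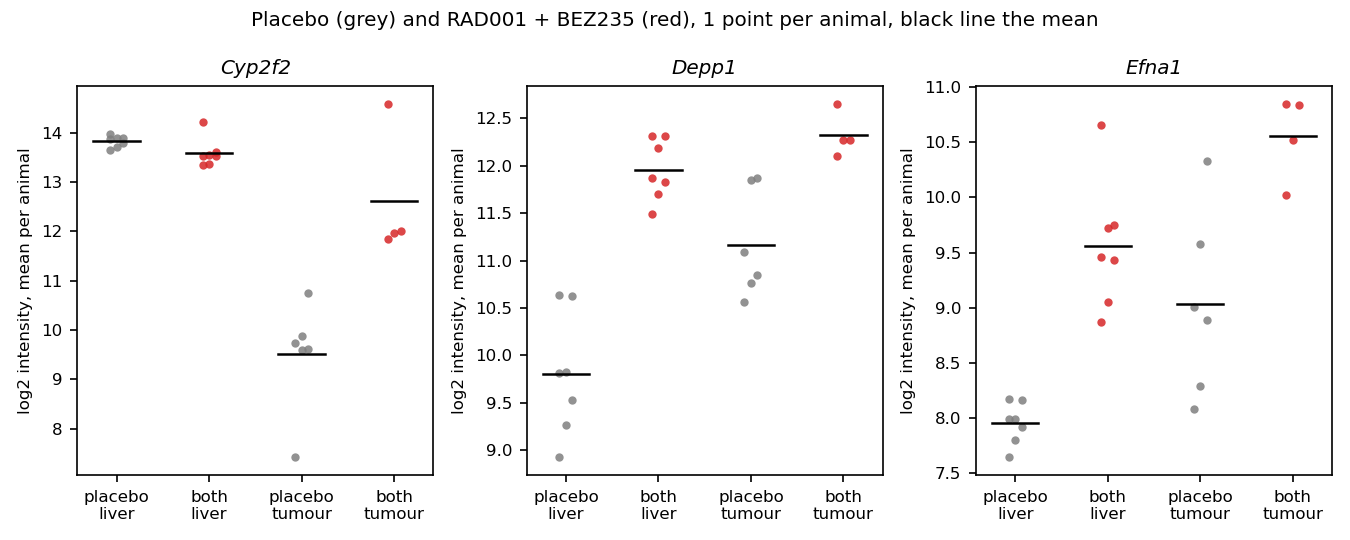
Log2 intensity, averaged by animal, of Cyp2f2, Depp1 and Efna1 in livers and tumours of placebo and combination animals, with black lines for means. Cyp2f2 lies near 13.82 and 13.59 in livers and at means of 9.51 and 12.61 in placebo and combination tumours.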

How the data were processed

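Total RNA was labelled and hybridised to Illumina mouse expression arrays. The deposited values are linear probe intensities that reach below 0, as after background subtraction, and BeadStudio is the tool named in the submitters' processing notes. Its version is not given in the sources used here. The brightest values were identical rank by rank within a treatment (log2 range 0), which shows a quantile normalization by treatment. A second table, with 128 columns of intensities and detection p-values whose names matched no sample label, was not used. The number of arrays limits the precision, and p-values set each difference against the spread between animals.

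All 64 arrays were quantile-normalized together. Background was corrected with normexp at mean 0 and SD 7.03 (from the negative values), an offset of 16 was added and log2 was taken. Symbols came from the platform annotation, updated to RefSeq for 23962 of 23978 probes. Probes above 14.1 (2 noise SDs) on at least 6 arrays were kept, 15241 of 25697, and each gene was read from its brightest kept probe, a choice among several for 2727 of 10493 genes. Livers were fitted in limma 3.58.1 (R 4.3.3) over 27 livers in 4 groups, two-sided, with Benjamini-Hochberg adjustment and a limit of 0.05. The tumour comparison kept the animal as a random block, since liver and tumour carry the same animal number (correlation 0.0968). The script was tested on simulated data.

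Genes were named by a rule: the 15 largest rises and falls with all combination animals on 1 side, leaving out predicted genes, up to 4 members of lowest p per list, a set list of 15 genes, and the 5 largest in each direction of other comparisons. Kbtbd2, Ggnbp2, Gm10052, Gm5643, Hsd3b5, Igf2, Spink1, Cd63 and Akr1c18 were named after their values were seen. The 51 lists held 1002 genes, 778 of them tested. Comparison, lists and rules were chosen with earlier results of these data known. Alternatives changed samples fitted, background, offset, normalization, filter, probe choice, weights and variance model, and left out animals.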

Additional observations from a re-analysis of the deposited data

Results flagged for a closer look

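In the combination livers Klf6 was far from the other 6 in animal 742, at 9.69 against a next value of 8.63. In the placebo livers Enpp5 was far below the others in animal 724, at 8.70 against a next value of 8.99. These were the only such samples in 58 groups examined, of which chance would mark about 1 in 20.

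Cyp2f2 differed between tissues in its response to the combination, with a tumour difference that exceeded the liver difference by 3.33 (adjusted p = 0.0102, limma). The call was lost with the animal as a fixed block (adjusted p = 0.174), with 1 tumour per animal (adjusted p = 0.0776) and without combination animal 773 (adjusted p = 0.15).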

How the results depend on the processing

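In combination against placebo livers the count of 29 was within 1.5 times under 9 of 12 processing alternatives. It was 19 with only the 2 groups fitted, 16 with no background correction and 44 for the deposited values without joint normalization, and 14 to 38 with 1 animal left out. Fitting only the 2 groups gave 46 against RAD001, where 1 animal left out gave 47 to 92. Without animals 709, 726 and 742, chosen after seeing the data, the counts were 2 and 15. Against BEZ235 the count was 0 throughout. For the tumour comparison it was 1 with no replicate block, 0 with the animal as a fixed replicate block, 0 with 1 tumour per animal and 0 to 5 with 1 animal left out. Signs turned only for differences near 0. Pck1 gave 0.016 without joint normalization, -0.12 to 0.020 with 1 animal left out (above 0 without placebo animal 744 or combination animal 742) and 0.13 without the 3 livers. Map1lc3b gave 0.0013, -0.10 to 0.0068 (above 0 without placebo animal 744 or combination animal 709) and 0.0096, and Srebf1 -0.35 to 0.065 with 1 animal left out (above 0 without placebo animal 710). Of the 29 genes 12 passed in all 12 processing alternatives, and 11 also with each animal left out. Dim probes limit Cabyr, Cox8b and Frat2. No scaling moved the median of all genes by 0.1.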

Other observations

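Core and linker histone genes were set together after their values were seen, so the group carries no test. Of 43 tested in combination against RAD001 livers, 7 fell past the limit, where 0.362% of all genes did, and 0 rose. The other 36 did not pass. In all 35 were negative, and the median was -0.30 against -0.01 over all genes. H3c6, which encodes histone H3, stood at 5.90 to 6.90 (median 6.14) in combination and 6.79 to 7.62 (median 7.25) in RAD001 livers (-0.94, SE 0.22, adjusted p = 0.031, limma). H4c11, which encodes histone H4, gave -0.78 (adjusted p = 0.0156), H3c4 -0.75, H4c8 -0.75, H4c6 -0.71, H3c7 -0.64 and H2bc14 -0.50. Against placebo livers 0 passed, with 38 of 43 negative and a median of -0.26, and against BEZ235 livers 0 passed, with a median of -0.16. These genes are near-identical copies whose probes may not separate them. Brd2, a reader of acetylated histones chosen in the same way, was also lower than in RAD001 livers (-0.79, SE 0.15, adjusted p = 0.00677).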
